A study of Mus musculus with 192 samples.

Results

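The comparison described here asked what a control small interfering RNA (siRNA) and its delivery did to the hippocampus of wild-type (WT) mice that carry no Huntington's disease allele. It set 8 WT mice given a non-targeting siRNA, named NTC, against 8 WT mice left untreated, 4 females and 4 males in each group. These 16 RNA sequencing libraries, 1 mouse each, were taken by their group label from the 192 libraries of the series, and all 15852 genes with enough counts were compared. The series also holds zQ175 mice, which carry an expanded CAG repeat knocked into the mouse Htt gene, and mice given siRNAs against HTT. NTC mice of regimen 2.6[8]10 were treated at 2 and again at 6 months of age, and both groups were collected at 10 months. Used beside them are NTC and untreated zQ175 mice of the same regimen, and NTC and untreated WT mice of regimens 2[4]6 (treated at 2 months, collected at 6) and 6[4]10 (treated at 6 months, collected at 10), 8 mice in each group. WT and zQ175 mice of 2.6[8]10 given siRNAs against HTT, labelled HTT-10150 or HTT-634.486, also enter the fit, 8 in each group. They are set against untreated mice in places. The labels state no strain, dose, route or siRNA chemistry and describe no mock-treated group, so the NTC siRNA and the act of giving it cannot be told apart. PolyA-selected RNA gave 13106077 to 19926772 counts per NTC library and 13201043 to 17814110 counts per untreated library.

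An siRNA is a short RNA duplex, 1 strand of which is loaded into an Argonaute protein and guides it to messenger RNAs that pair with it. A non-targeting sequence is chosen to have no fully paired target in the animal. Any guide strand can still pair through its seed, the bases near its 5′ end, with sites in 3′ untranslated regions (3′ UTRs) and lower those messages slightly, as a microRNA does. RNA given to the brain can also be sensed by Toll-like receptors and by cytosolic sensors that switch on interferon genes. Microglia, the resident macrophages of the brain, take up foreign material, and in mouse models of injury or plaque they lower a resting set of genes and raise complement, lysosomal and lipid-handling genes.

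Some libraries stood apart. The summed level of 12 choroid plexus genes in CPM (counts scaled to the size of the library) was 12236 CPM in NTC female_3, and 6721, 4105 and 8990 CPM in untreated female_2, female_3 and female_4, against 59.5 to 333 CPM in the other 12 libraries. Prkcd, a kinase abundant in thalamic relay neurons, stood at 79.3, 69.1 and 86.7 CPM in untreated female_3, female_4 and male_3, against 16.8 to 41.8 CPM in every other library. NTC female_2 had 0.711 CPM of Xist and 0.316 CPM of the Y-linked gene Ddx3y, whereas the other females had at least 628 CPM of Xist and the males at least 50.3 CPM of Ddx3y. Markers of hippocampal neurons were present in both groups. Prox1, a transcription factor of dentate granule cells, had medians of 133.9 CPM in NTC and 133.4 CPM in untreated mice, Wfs1, a CA1 marker, 91.9 and 113.4 CPM, and Bok and Iyd, markers of CA3, 54.3 and 65.9 CPM and 2.75 and 3.78 CPM. None of these 4 genes was called (adjusted p = 0.866, 0.0796, 0.394 and 0.141). Grik4, a further CA3 marker, went the other way, with medians of 60.2 CPM in NTC and 57.2 CPM in untreated mice (log2 change 0.10 ± 0.12). The further CA1 markers Fibcd1 and Mpped1 had log2 changes of -0.09 ± 0.15 and -0.09 ± 0.12. These further markers were not called either. The summed level of the CA3 and CA2 list was below every untreated mouse in 5 of 8 NTC mice, with medians of 1132 and 1185 CPM. That sum includes Lynx1, a called fall with medians of 309.7 CPM in NTC and 378.8 CPM in untreated mice. The list's median log2 change was -0.02, and 7 of its 16 members lay above 0. The striatal receptor Drd1 was near 4.53 and 3.65 CPM.

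After 2 treatments with NTC, 110 of 15852 genes were called changed, 0.694 percent of those tested, with 48 raised (0.303 percent) and 62 lowered (0.391 percent). A gene is called at a Benjamini-Hochberg adjusted p under 0.05 in the quasi-likelihood test of edgeR, fitted to the 64 libraries of the regimen, and every adjusted p below is from that test unless another is named. Called genes had a median absolute log2 change of 0.26, and 7 genes changed at least 2-fold. Of the 110, 108 are protein-coding genes. An unadjusted p under 0.05 was reached by 1816 genes, 1005 higher and 811 lower in NTC mice. These counts moved with the scaling and with single mice. Upper-quartile factors gave 103 calls, 32 raised and 71 lowered. Leaving out 1 library at a time gave 46 to 137 calls, with 67, 46 and 70 without NTC female_1, female_2 and female_4, and 66, 64, 63, 62 and 71 without untreated female_2, female_3, male_1, male_2 and male_3. Without the 4 libraries that held choroid plexus RNA 24 of the 110 were called, and all 110 kept their direction. That fit reuses mice that picked the 110 genes, so a kept direction was favoured in advance.

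**Figure D1:**
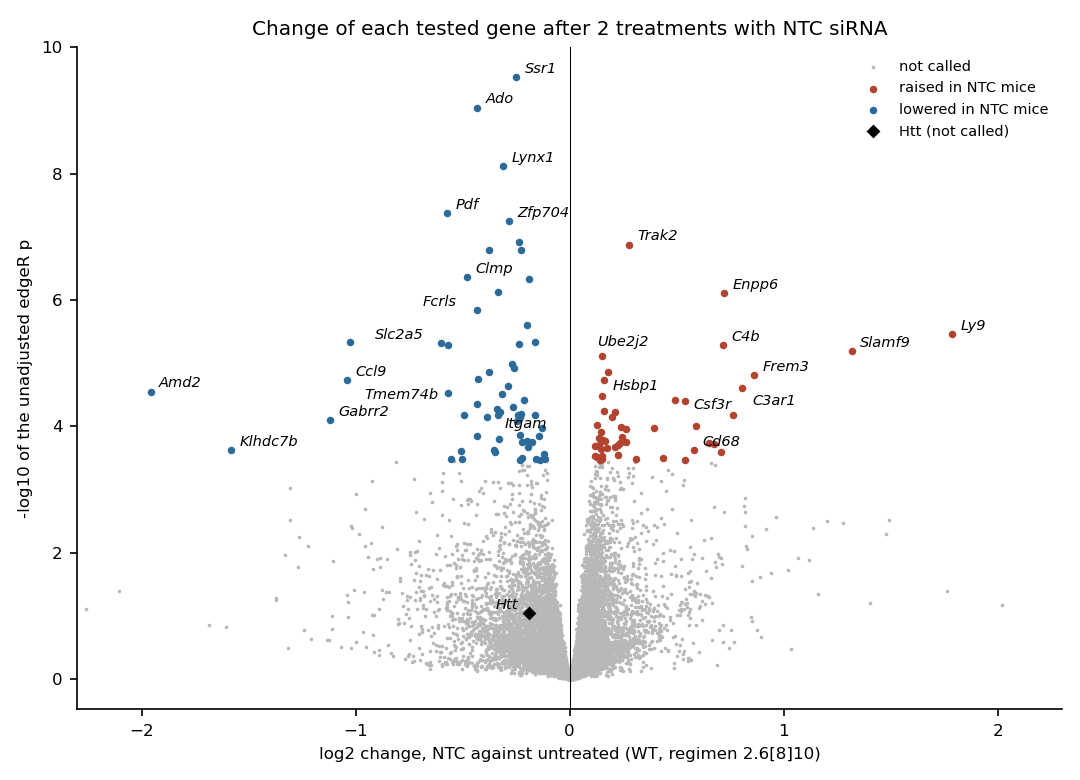
Each point is 1 of 15852 genes, with the log2 change in NTC against untreated WT mice on the horizontal axis and -log10 of the unadjusted edgeR p on the vertical axis. The 48 raised genes are red, the 62 lowered genes are blue, and Htt, drawn as a black diamond, is not among them.

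The raised genes included members of the complement system. C4b (ENSMUSG00000073418, GRCm38 chromosome 17, 34728380 to 34743882, minus strand), a complement component made mainly by glia, ranged from 130.8 to 168.2 CPM with a median of 143.8 in NTC mice, and from 69.3 to 125 CPM with a median of 87.4 in untreated mice. All 8 NTC mice stood above every untreated mouse. The log2 change was 0.72 ± 0.14 (SE), a 1.64-fold rise (adjusted p = 0.00374). C3ar1, the receptor for the complement fragment C3a, had 2.41, 3.63 and 4.4 CPM as its lowest, median and highest values in NTC mice, against 1.46, 2 and 2.44 CPM in untreated mice, and rose by 0.81 ± 0.18 on the log2 scale (adjusted p = 0.0116). Here 7 of 8 NTC mice were above every untreated mouse. Without the 4 libraries with choroid plexus RNA the changes were of similar size, 0.67 ± 0.17 for C4b and 0.82 ± 0.22 for C3ar1, but their adjusted p-values were 0.0844 and 0.101.

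Other genes of macrophages and immune cells were called as well. Cd68, a lysosomal membrane protein of macrophages, had 6.1 to 11.7 CPM (median 9.82) in NTC mice and 4.85 to 7.07 CPM (median 6.32) in untreated mice, a log2 change of 0.58 ± 0.15 (adjusted p = 0.0423). Mpeg1, a pore-forming protein of phagocytes, had 29.5 to 47.5 CPM (median 43.1) in NTC mice and 26.4 to 33.6 CPM (median 29.3) in untreated mice, a log2 change of 0.49 ± 0.11 (adjusted p = 0.015). In both genes the groups overlapped by a single NTC mouse. Csf3r, the receptor for granulocyte colony-stimulating factor, rose by 0.54 ± 0.12 (adjusted p = 0.0151), and Myo1f, a myosin of immune cells, by 0.59 ± 0.14 (adjusted p = 0.026). Cd68 and Myo1f were called in 4 and 10 of the 16 fits that each leave out 1 mouse. Ly9 and Slamf9, immune receptors of the SLAM family, showed the largest rises and are named for that after their values were seen. Ly9 had 0.704 to 2.41 CPM in NTC mice and 0.154 to 1.09 CPM in untreated mice (log2 change 1.79 ± 0.35, adjusted p = 0.00344), and Slamf9 0.567 to 2.05 CPM and 0.239 to 0.822 CPM (1.32 ± 0.27, adjusted p = 0.0044). Without the 4 libraries with choroid plexus RNA none of the genes in this paragraph was called. Their adjusted p-values then lay between 0.0562 for Slamf9 and 0.228 for Myo1f.

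**Figure D2:**
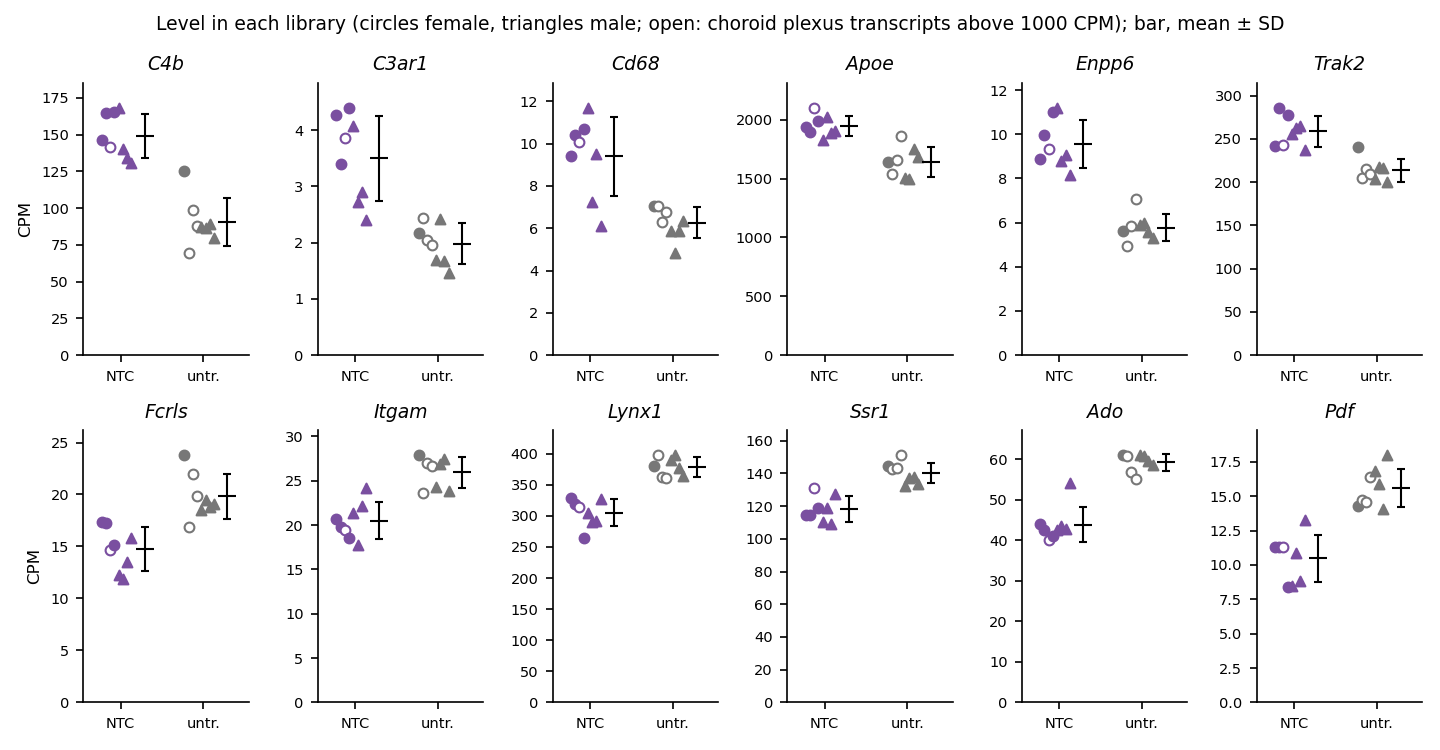
Level of 12 genes in each library in CPM, NTC mice on the left and untreated mice on the right of each panel. Circles are females, triangles are males, open symbols are the 4 libraries with choroid plexus RNA, and bars give the mean ± SD of 8 mice. C4b and Enpp6 are higher in all 8 NTC mice than in any untreated mouse, and Lynx1, Ssr1, Ado and Pdf are lower in all 8.

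Microglial genes moved in both directions. Of 20 genes that mark resting microglia, all tested, 0 rose and 3 fell: Fcrls, an Fc receptor-like protein found in rodent microglia, Selplg, the ligand of P-selectin, and Itgam, the integrin subunit CD11b. Fcrls ranged from 11.9 to 17.4 CPM (median 14.9) in NTC mice and from 16.9 to 23.8 CPM (median 19.3) in untreated mice, a log2 change of -0.43 ± 0.08 (adjusted p = 0.00164). Selplg ranged from 15 to 23.8 CPM in NTC mice and from 24.6 to 29.9 CPM in untreated mice, without overlap (-0.43 ± 0.09, adjusted p = 0.00931). Itgam, which is also the alpha chain of complement receptor 3, ranged from 17.7 to 24.2 CPM in NTC mice and from 23.6 to 27.9 CPM in untreated mice (-0.34 ± 0.08, adjusted p = 0.0191). Without the 4 libraries with choroid plexus RNA Fcrls alone of the 3 was called, and Selplg and Itgam had log2 changes of -0.46 ± 0.11 and -0.36 ± 0.09 (adjusted p = 0.0568 and 0.0967). The list's median log2 change was 0.05, against 0.002 over all genes, and 11 of its 20 members lay above 0. The purinergic receptor P2ry12, a defining microglial marker, had medians of 29.4 CPM in NTC mice and 29.5 CPM in untreated mice, and Cx3cr1, the fractalkine receptor, 53.3 and 54.4 CPM. In bulk tissue, fewer cells of a type and less RNA per cell cannot be told apart.

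Of 19 tested genes that microglia raise when activated, 2 rose and 0 fell, and 16 lay above 0, with a median log2 change of 0.24. Besides Cd68 the riser was Apoe, the main apolipoprotein of the brain, which astrocytes also make. Apoe ranged from 1829 to 2101 CPM (median 1918) in NTC mice and from 1494 to 1860 CPM (median 1650) in untreated mice, a log2 change of 0.24 ± 0.06 (adjusted p = 0.0335), with 7 of 8 NTC mice above every untreated mouse. Without the choroid plexus libraries neither riser was called, with log2 changes of 0.26 ± 0.07 for Apoe and 0.60 ± 0.18 for Cd68 (adjusted p = 0.101 and 0.214). Gpnmb, a glycoprotein of lipid-laden phagocytes, had a log2 change of 0.81 ± 0.25 (adjusted p = 0.109), and the chemokine Ccl6 one of -0.65 ± 0.19 (adjusted p = 0.0857). Neither was called. Of 20 complement genes tested, C4b and C3ar1 rose and Itgam fell, and C1qc, a chain of the recognition molecule C1q, had a log2 change of 0.33 ± 0.11 (adjusted p = 0.172). Of 25 genes of endocytosis and the lysosome, 1 rose and 0 fell, and the median log2 change was 0.06. Over all genes tested, 0.694 percent were called. The riser was Grn, which encodes progranulin, with 48.7 to 60.0 CPM in NTC mice and 43.8 to 51.2 CPM in untreated mice (0.26 ± 0.06, adjusted p = 0.0271). Without the choroid plexus libraries Grn was not called (0.25 ± 0.07, adjusted p = 0.187).

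**Figure D3:**
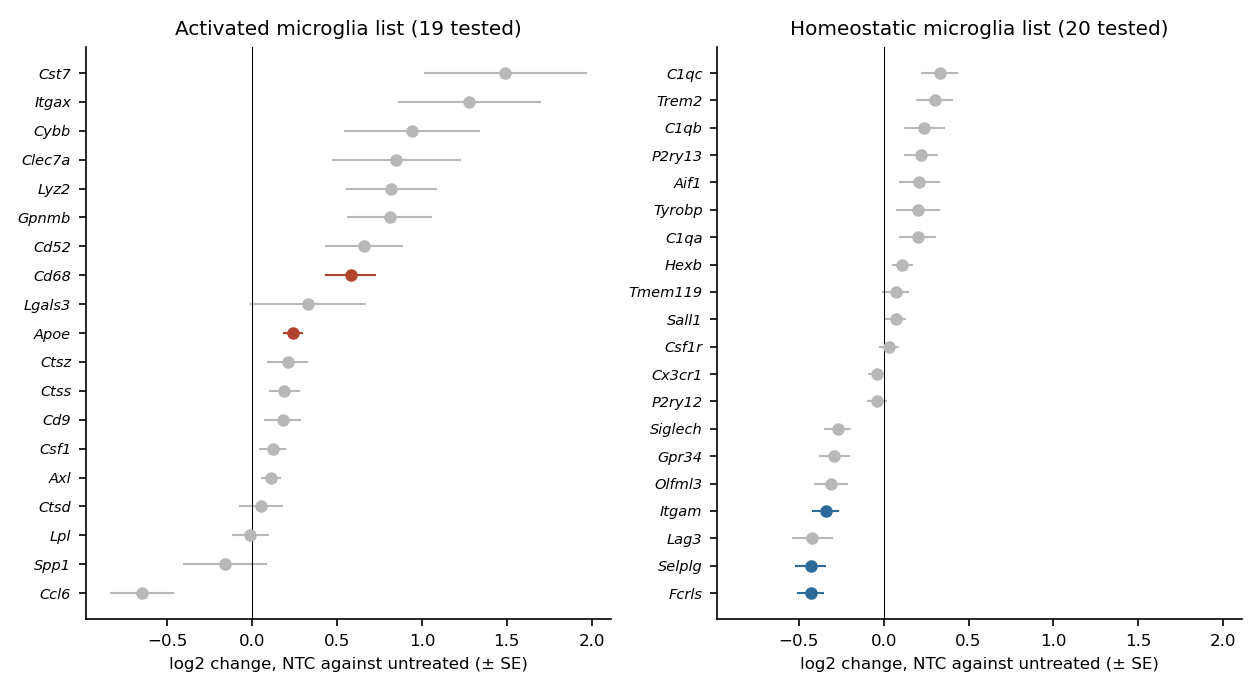
Log2 change in NTC against untreated mice of each tested member of the activated (19) and the resting (20) microglial lists, with the standard error as a bar. Red marks a called rise and blue a called fall. Apoe and Cd68 are red, and Fcrls, Selplg and Itgam are blue.

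A further microglial gene fell without overlap between the groups. Slc2a5, the fructose transporter GLUT5, which microglia express in the brain, had 3.16 to 5.11 CPM (median 3.56) in NTC mice and 5.28 to 7.07 CPM (median 5.56) in untreated mice, a log2 change of -0.60 ± 0.12 (adjusted p = 0.00374). Ccl9, a chemokine named for a fall of at least 2-fold after its values were seen, had 0.276 to 1.04 CPM in NTC mice and 1 to 2.18 CPM in untreated mice (-1.04 ± 0.22, adjusted p = 0.00931).

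No gene of the reactive astrocyte list passed the test (0 of 18 by edgeR, DESeq2 and limma-voom), although 15 lay above 0, 7 of them at an unadjusted p under 0.05 in edgeR, and the median log2 change was 0.19. The summed level of the listed genes was 738 to 968 CPM in NTC mice and 582 to 777 CPM in untreated mice, and 7 of 8 NTC mice were above every untreated mouse. Gfap, the filament protein of astrocytes, made up most of that sum, with 479 to 676 CPM (median 608) in NTC mice and 365 to 524 CPM (median 445) in untreated mice. Its log2 change was 0.44 ± 0.15 (adjusted p = 0.15). The intermediate filament gene Vim had a log2 change of 0.33 ± 0.11 (adjusted p = 0.123) and the MHC class I gene H2-D1 one of 0.36 ± 0.11 (adjusted p = 0.115).

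RNA-sensing and interferon genes showed no call. At the share of 0.694 percent called over all genes tested, lists of this size would hold few calls or none. None of 28 interferon-stimulated genes (median log2 change 0.08), 22 sensors of RNA (0.00), 13 inflammatory cytokines and chemokines (0.11) or 16 genes of MHC and antigen presentation (0.13) rose or fell. At an unadjusted p under 0.05 these lists held 0, 1, 0 and 3 higher genes and 1, 3, 1 and 0 lower genes, and DESeq2 and limma-voom called 0 in each. Unc93b1, which escorts endosomal Toll-like receptors, had a log2 change of 0.30 ± 0.09 (adjusted p = 0.0988). Infiltrating leukocyte genes were mostly below the count filter, with 2 of 14 tested, and Ptprc, the pan-leukocyte phosphatase CD45 that microglia also carry, had a log2 change of 0.39 ± 0.13 (adjusted p = 0.15). Of 24 genes of the RNA interference machinery and RNA decay, 0 rose and 1 fell. That was Dcp2, the catalytic subunit of the messenger RNA decapping enzyme, with 61 to 70.5 CPM in NTC mice and 71.7 to 84 CPM in untreated mice, without overlap (-0.25 ± 0.06, adjusted p = 0.0225).

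Outside the immune genes, the rise with the second smallest p belonged to Enpp6 (ENSMUSG00000038173, chromosome 8, 46986887 to 47096762, plus strand), a choline-specific phosphodiesterase that marks newly forming oligodendrocytes. It ranged from 8.16 to 11.2 CPM (median 9.19) in NTC mice and from 4.95 to 7.08 CPM (median 5.74) in untreated mice, with no overlap, a log2 change of 0.72 ± 0.13 (adjusted p = 0.000965). It was the sole call among 11 genes of newly formed oligodendrocytes, whose median log2 change was 0.02, and none of 18 genes of mature oligodendrocytes and myelin or 11 of oligodendrocyte precursors was called by edgeR, DESeq2 or limma-voom, with 3 and 0 higher at an unadjusted p under 0.05. Enpp6 was called without the 4 libraries with choroid plexus RNA too (0.74 ± 0.16, adjusted p = 0.0274).

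Trak2 (ENSMUSG00000026028, chromosome 1, 58900449 to 58973430, minus strand), an adaptor that ties mitochondria to kinesin motors, had the smallest p of all raised genes. Its level ran from 236.8 to 285.9 CPM (median 259.2) in NTC mice and from 200.1 to 240.7 CPM (median 212) in untreated mice, a log2 change of 0.28 ± 0.05 (adjusted p = 0.000288). All but 1 NTC mouse lay above every untreated mouse. In the same list of 19 genes of mitochondrial transport and axonal trafficking, Klc2, a kinesin light chain, fell, with 193.1 to 245.9 CPM in NTC mice and 229.2 to 277.1 CPM in untreated mice (-0.23 ± 0.05, adjusted p = 0.0198).

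Both stress-related lists held 1 small rise, and their medians lay near 0. Hsbp1, a protein that binds heat shock factor, ran from 176.1 to 194 CPM in NTC mice and from 136.1 to 175.0 CPM in untreated mice, without overlap (0.18 ± 0.04, adjusted p = 0.00781). The list of 25 heat shock and chaperone genes had a median log2 change of 0.04. Ube2j2, a ubiquitin-conjugating enzyme of the endoplasmic reticulum (ER), ran from 35.2 to 40.3 CPM in NTC mice and from 33.7 to 35.6 CPM in untreated mice (0.15 ± 0.03, adjusted p = 0.00519), among 25 ER stress genes with a median of 0.02. It was also the 1 call among 20 genes of ubiquitin conjugation at the ER and the proteasome, with a median of 0.07. There 17 lay above 0, and at an unadjusted p under 0.05 in edgeR 12 were higher and 0 lower. Frem3, an extracellular matrix protein, Col6a5, a collagen chain, and Smtnl2, a smoothelin-like protein, completed the named raised genes, with log2 changes of 0.86 ± 0.18, 0.76 ± 0.18 and 0.54 ± 0.14 (adjusted p = 0.00838, 0.0198 and 0.0495). Their levels were low, at medians of 3.3, 2.8 and 2.25 CPM in NTC mice and 1.78, 1.81 and 1.59 CPM in untreated mice. Col6a5 and Smtnl2 were called in 13 and 4 of the 16 fits that leave out 1 mouse.

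The falls were the more sharply separated side. In 16 of the 62 lowered genes all NTC mice were below all untreated mice, and in 7 of the 48 raised genes all were above. Over all genes tested, 0.196 percent were separated that way downwards and 0.0883 percent upwards. The smallest p of all belonged to Ssr1 (ENSMUSG00000021427, chromosome 13, 37966605 to 37994217, minus strand), the alpha subunit of the translocon-associated protein complex, through which secreted and membrane proteins enter the ER. Ssr1 had 109.1 to 131.2 CPM (median 116.7) in NTC mice and 132.4 to 151.2 CPM (median 140.1) in untreated mice, without overlap, and fell by 15.8 percent (log2 change -0.25 ± 0.03, adjusted p = 4.71e-06). It was the sole called gene of 22 in the ER translocon list, whose median was 0.05, and its partner subunit Ssr2 had a log2 change of 0.10 ± 0.04 (adjusted p = 0.281).

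Ado (ENSMUSG00000057134, chromosome 10, 67544511 to 67548955, minus strand), a dioxygenase that oxidises cysteamine and N-terminal cysteines, fell by 26 percent. It had 40.1 to 54 CPM (median 42.6) in NTC mice and 55.2 to 61 CPM (median 60.1) in untreated mice, without overlap (-0.43 ± 0.06, adjusted p = 7.15e-06). Lynx1 (ENSMUSG00000022594, chromosome 15, 74747852 to 74753046, minus strand), a Ly6 family protein that restrains nicotinic acetylcholine receptors, had 264 to 329 CPM (median 309.7) in NTC mice and 360.1 to 398 CPM (median 379) in untreated mice, again without overlap (-0.31 ± 0.05, adjusted p = 3.97e-05). Among 14 genes of nicotinic signalling and the Ly6 family it was the single call. Chrna4, a nicotinic receptor subunit, had a log2 change of -0.47 ± 0.14 (adjusted p = 0.0968).

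Pdf (ENSMUSG00000078931, chromosome 8, 107044698 to 107048614, minus strand), the mitochondrial peptide deformylase, had 8.43 to 13.3 CPM (median 11.1) in NTC mice and 14.1 to 18 CPM (median 15.3) in untreated mice (-0.57 ± 0.09, adjusted p = 0.000165). Clmp, a cell adhesion molecule, had 19.5 to 27.3 CPM (median 22.1) in NTC mice and 27.8 to 35.2 CPM (median 31.5) in untreated mice (-0.48 ± 0.08, adjusted p = 0.00067). Zfp704, a zinc finger protein, had 57.3 to 67.9 CPM (median 61.8) in NTC mice and 70.3 to 87.3 CPM (median 73.8) in untreated mice (-0.28 ± 0.05, adjusted p = 0.000177). None of these 3 genes overlapped between the groups. Slc30a4, a zinc transporter, is named after its values were seen as a lowered gene without overlap, with 34.1 to 43.8 CPM in NTC mice and 45.3 to 53.3 CPM in untreated mice (-0.38 ± 0.06, adjusted p = 0.000288).

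The other lowered genes picked by size were Tmem74b, a membrane protein (-0.57 ± 0.13), Espn, an actin-bundling protein (-0.55 ± 0.14), Epb41l5, a FERM domain protein (-0.51 ± 0.13), Gpr101, an orphan receptor (-0.50 ± 0.13), Trim66 (-0.49 ± 0.11) and Gm26782 (-0.44 ± 0.11). Their adjusted p-values lay between 0.013 for Tmem74b and 0.0495 for Espn and Gpr101. In all 6 the groups overlapped. Espn, Epb41l5, Gpr101, Trim66 and Gm26782 were called in 3, 5, 6, 12 and 8 of the 16 fits that leave out 1 mouse. Gm26782 is annotated as antisense, and because the sources used here do not say whether counting used the strand, its reads cannot be told apart from those of its partner. The same holds for Gm13205, a further antisense gene among the 7 with changes of at least 2-fold. In this group Amd2 rests on untreated mice, with 0.206 to 0.996 CPM in NTC mice and 0.353 to 9.42 CPM in untreated mice, and it is a near-identical copy of Amd1, with which it can share reads. Gabrr2, a GABA receptor subunit, and Klhdc7b were the remaining falls of that size, with at most 1.55 and 0.859 CPM in any library.

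The falls were then set beside the sequence of the 3′ UTRs. Each heptamer (a 7-base DNA word) was looked for on the sense strand in the longest annotated 3′ UTR of 14466 tested genes, and 16038 heptamers held by at least 100 genes were ranked by the median log2 change of genes that held them minus that of genes that did not. The lowest were ACGATTA (195 genes, 1.35 percent, difference -0.075), TACGATT (276 genes, 1.91 percent, -0.064) and CGATTAT (1.22 percent of genes, -0.056), which overlap one another by 5 or 6 bases. Joined, the first 2 make the octamer TACGATTA, held by 51 genes (0.353 percent). The words were picked by this contrast, so their values in it are a description. The NTC sequence was not used here, so the words were not set against it, and 0 of the 1738 mature mouse microRNAs listed by RefSeq have bases 2 to 8 that pair with the first or the second.

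The sites of the named lowered genes are shown on the sense strand, 5′ to 3′, with the match in capitals and GRCm38 positions. Ado, Clmp and Pdf hold the first word, and Ssr1, Zfp704 and Trim66, which hold the second alone, were added after the values were seen. They lie at chr10:67547188-67547208 (minus strand) in Ado, chr9:40783364-40783384 (plus) in Clmp, chr8:107046939-107046960 (minus) in Pdf, chr13:37979584-37979604 (minus) in Ssr1, chr3:9434507-9434527 (minus) in Zfp704 and chr7:109453029-109453049 (minus) in Trim66.
Ado: agcaaagACGATTAttatcct
Clmp: tatcaagACGATTAtcccggg
Pdf: gacagaaTACGATTAcagcagg
Ssr1: gtggccaTACGATTgctgaaa
Zfp704: tccatgtTACGATTtcatcct
Trim66: tcctgccTACGATTctagatc
A match says that these letters are present, not that anything binds there. Lynx1, Slc2a5, Tmem74b, Espn, Epb41l5, Gpr101 and Gm26782 hold neither word in the 3′ UTR searched, where one was annotated.

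Because the words were picked by the changes in this contrast, an excess among its lowered genes was favoured in advance. Among called genes with a 3′ UTR, 15 of 60 lowered genes (25 percent) and 0 of 47 raised genes held the first or the second word, against 416 of all 14466 genes (2.88 percent). The others on the lowered side include Golph3 and Zmat3, each with a pair of sites, and Slc30a4, Slain1 and Irak1bp1. Most genes with a site were not called: of the 416, 304 had a log2 change below 0, with a median of -0.058, against 7049 of all 14466 and a median of 0.003. For the octamer these were 42 of 51 and -0.094. Genes with either word had longer 3′ UTRs, with a median of 2727 bases against 1349 bases for the rest, a difference whose part in the result was not tested.

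The ranks can be compared with groups that did not choose the words and share no library with this comparison. In zQ175 mice of 2.6[8]10, NTC against untreated, ACGATTA and TACGATT again had ranks 1 and 2 of 16038, with differences of -0.071 and -0.058, and CGATTAT had rank 8. In WT mice treated once, the ranks were 1, 2 and 20 in regimen 2[4]6 (-0.037, -0.034 and -0.027) and 1, 2 and 5 in 6[4]10 (-0.056, -0.048 and -0.040). Against the same untreated WT mice of 2.6[8]10, the siRNAs against HTT ranked the first word 210 with HTT-10150 and 338 with HTT-634 plus HTT-486. Its differences there were -0.039 and -0.014, and the first is close to that of NTC in 2[4]6 at rank 1. In zQ175 mice of 2.6[8]10 the word had ranks 180 and 1627, with differences of -0.038 and -0.028. Genes with this word thus also lay lower with the siRNAs against HTT. Each of these comparisons shares its untreated libraries with the NTC comparison of the same genotype. Within the contrast that picked the words, ACGATTA stayed at rank 1 in females alone, in males alone and with DESeq2. It did so too without NTC female_2 and without the libraries with choroid plexus RNA. Its differences lay between -0.095 in females and -0.049 in males. These settings reuse the mice that picked the words, so a rank near 1 there was favoured in advance.

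For each library the median relative log2 CPM of genes with either word minus that of the rest gave 1 value, each gene first being set to its mean over 64 libraries. It had -0.071, -0.051 and -0.006 as its lowest, median and highest values in WT NTC mice, and 0.003, 0.026 and 0.049 in WT untreated mice. In zQ175 mice it ran from -0.085 to 0.033 with NTC (median -0.037) and from 0.016 to 0.051 in untreated mice (median 0.033). The WT groups did not overlap, and the zQ175 groups overlapped by a single NTC mouse. A separation of the WT groups was favoured in advance, because their contrast picked the words. The zQ175 mice took no part in that choice. With HTT-10150 the median of the library value was -0.002 in WT mice and 0.001 in zQ175 mice. With HTT-634 plus HTT-486 it was 0.016 and 0.013.

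**Figure D4:**
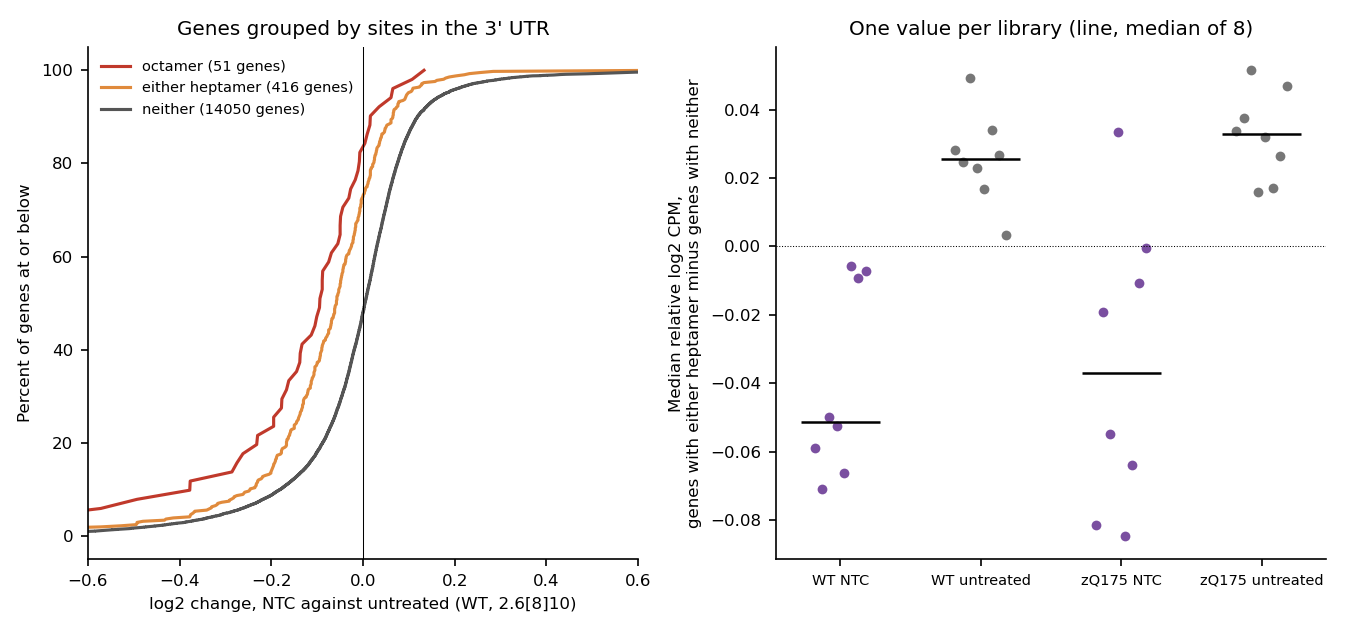
Left, percent of genes at or below each log2 change in NTC against untreated WT mice, for 51 genes with the octamer in the 3′ UTR, 416 with either heptamer and 14050 with neither; the first curve lies farthest left. Right, median relative log2 CPM of genes with either heptamer minus that of the others, 1 point per library and a line at the median of 8, where WT NTC mice lie below 0 and WT untreated mice above it. The heptamers were picked by the contrast of these WT NTC and WT untreated mice.

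Lists of neuronal genes held few calls, but only 0.694 percent of all genes tested were called. Lists of this size would hold few calls or none at that share. In the lists for dentate granule cells (16 tested), CA1 (11), interneurons (16), glutamate receptors and the postsynapse (30), presynaptic vesicles (24) and immediate early genes (25), 0 genes rose or fell, and medians ran from -0.09 for CA1 to 0.02 for granule cells. At an unadjusted p under 0.05 in edgeR they held 1, 1, 0, 2, 1 and 1 higher genes and 0, 1, 1, 4, 2 and 0 lower genes. DESeq2 called 1 gene of these lists, Wfs1, and limma-voom 0. The CA3 and CA2 list of 16 held 1 call, Lynx1. Of the vessel lists, 15 endothelial genes and 12 genes of pericytes and smooth muscle held 0 calls by edgeR, DESeq2 or limma-voom (0 and 2 lower at an unadjusted p under 0.05 in edgeR, 0 higher), with medians of -0.05 and -0.11 and 3 and 1 of their members above 0. Wfs1, an ER protein of CA1 pyramidal cells, had 77.8 to 104 CPM in NTC mice and 82.7 to 155 CPM in untreated mice (-0.32 ± 0.09, adjusted p = 0.0796). No gene was called among 26 of oxidative phosphorylation, 32 cytosolic ribosomal proteins, 24 of sterol synthesis, 18 of the circadian clock or 16 of the glucocorticoid response, with medians of 0.05, 0.06, -0.00, -0.04 and 0.11. At an unadjusted p under 0.05 these 5 lists held 9, 4, 0, 0 and 4 higher genes and 1, 0, 1, 1 and 0 lower genes, with 1 call by DESeq2 (the clock factor Hlf) and 0 by limma-voom.

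Markers of tissue next to the hippocampus moved with the groups, and their part in the calls was not tested. The 12 choroid plexus genes had a median log2 change of -0.62 with 0 calls by the same tools (0 at an unadjusted p under 0.05), and 0.32 without the 4 libraries named above. The 12 genes of fibroblasts and meninges had a median of -0.41, 11 of them below 0 and 0 called by edgeR, DESeq2 or limma-voom (2 lower at an unadjusted p under 0.05), and their summed level was 219 to 1173 CPM (median 257) in NTC mice and 298 to 1019 CPM (median 417) in untreated mice. In 7 of 8 NTC mice that sum was below every untreated mouse. The vesicular transporter Slc17a6, which thalamic neurons express, had 6.49 to 28.5 CPM in NTC mice and 16.2 to 41.3 CPM in untreated mice (-0.79 ± 0.34, adjusted p = 0.33). Enpp6, Trak2, Ube2j2, Ssr1, Ado, Lynx1, Pdf, Zfp704, Clmp, Fcrls and Tmem74b are among the 21 genes called with the choroid plexus libraries left out, with the plexus level as a covariate, and without NTC female_2. C4b, C3ar1, Cd68, Apoe, Selplg, Itgam, Slc2a5 and Hsbp1 are not, although with the plexus libraries left out Slc2a5 still had a log2 change of -0.57 ± 0.14 and Hsbp1 one of 0.13 ± 0.04, and those of the other 6, given above, stayed close to the values in all 16 libraries. With the plexus level as a covariate all 8 of these genes were called. Mpeg1, Csf3r, Myo1f, Ly9, Slamf9, Grn, Frem3, Col6a5, Smtnl2, Dcp2 and Ccl9 are not among the 21 either. None of them was called with the plexus libraries left out. Of the 24 calls without those libraries, 4 were raised and 20 lowered.

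Htt, the gene that the active siRNAs of the series aim at and NTC does not, was lower in NTC mice. It had 143.6 to 178.9 CPM with a mean of 161.6 ± 10.6 (SD, n = 8) in NTC mice, and 163.2 to 199.9 CPM with a mean of 184.1 ± 11.7 in untreated mice. The difference of -22.5 CPM, or 12.2 percent, was past an exact two-sided permutation test over 12870 splits (p = 0.00233, smallest possible 0.000155), and 5 of 8 NTC mice were below every untreated mouse. The edgeR fit over 64 libraries, which also hold mice with Htt knocked down, did not call it (log2 change -0.19 ± 0.11, adjusted p = 0.532), and the fit of these 16 libraries alone did (-0.19, adjusted p = 0.0379). In the other NTC comparisons the log2 change of Htt was -0.04 ± 0.11 in zQ175 mice, -0.13 ± 0.11 in WT 2[4]6 and -0.15 ± 0.13 in WT 6[4]10, none called. Htt holds neither 3′ UTR word.

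The sexes were compared with 4 mice per group and sex. All 110 called genes had the same sign in females and in males. They were called on these same mice together, which favours a shared sign. NTC female_2, with 0.711 CPM of Xist, is counted among the females. The difference between the sexes in the NTC change was called for 0 genes by edgeR (343 at an unadjusted p under 0.05) and 0 by limma-voom. Pdf fell by 0.50 ± 0.12 in females and 0.64 ± 0.12 in males on the log2 scale, and C4b rose by 0.70 ± 0.21 and 0.74 ± 0.21.

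In zQ175 mice of the same regimen, NTC against untreated called 1.02 percent of the genes tested, with 63 raised (0.397 percent) and 98 lowered (0.618 percent). Of the 110 WT calls, 43 were called there as well with the same sign, which is 39.1 percent of the WT calls and 26.7 percent of the zQ175 calls, and 103 of 110 had the same sign, against 64.1 percent of all genes. Ado had log2 changes of -0.55 ± 0.06 in zQ175 and -0.43 ± 0.06 in WT mice, and Lynx1 of -0.30 ± 0.05 and -0.31 ± 0.05. C3ar1 rose by 1.13 ± 0.17 in zQ175 and 0.81 ± 0.18 in WT mice. The difference between genotypes itself was called for 3 genes (0.0189 percent, 0.00631 percent above 0 and 0.0126 percent below; 586 at an unadjusted p under 0.05) and for 0 genes by limma-voom. Frem3 had a log2 change of -0.60 ± 0.20 in zQ175 mice and 0.86 ± 0.18 in WT mice. Nfat5, a transcription factor of osmotic stress, had 0.14 ± 0.04 in zQ175 mice and -0.12 ± 0.04 in WT mice, and Nf1, the RAS regulator neurofibromin, 0.17 ± 0.04 and -0.11 ± 0.04. Zfp704 had a log2 change of -0.01 ± 0.04 in zQ175 mice, but its difference between genotypes was not called (adjusted p = 0.164). Tmem74b and Gpr101 had log2 changes of 0.09 ± 0.12 and 0.03 ± 0.13 in zQ175 mice. Their differences between genotypes were not called either (adjusted p = 0.435 and 0.944).

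After a single treatment, NTC against untreated WT mice gave 0 calls in 2[4]6 and 0 in 6[4]10 by edgeR, with 614 and 1244 genes at an unadjusted p under 0.05. All 110 genes had the same sign in 2[4]6, against 66.5 percent of all genes tested in both, and 3 of 110 had the opposite sign in 6[4]10, where 67.6 percent of all genes had the same. The median log2 change of the 48 raised genes was 0.23 after 2 treatments, 0.09 in 2[4]6 and 0.10 in 6[4]10, and that of the 62 lowered genes was -0.30, -0.16 and -0.17. The first of these values was used to pick the genes and so lies farther from 0 than a repeat would. C4b had log2 changes of 0.48 ± 0.12 in 2[4]6 and 0.22 ± 0.11 in 6[4]10, and Ado of -0.26 ± 0.06 and -0.35 ± 0.08. Those of Tmem74b were -0.01 ± 0.13 in 2[4]6 and 0.03 ± 0.13 in 6[4]10, and those of Gpr101 -0.06 ± 0.11 and -0.12 ± 0.14. The difference between 2 treatments and 1 was called for 0 genes in either contrast by edgeR and by limma-voom, with 333 and 385 genes at an unadjusted p under 0.05 in edgeR.

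**Figure D5:**
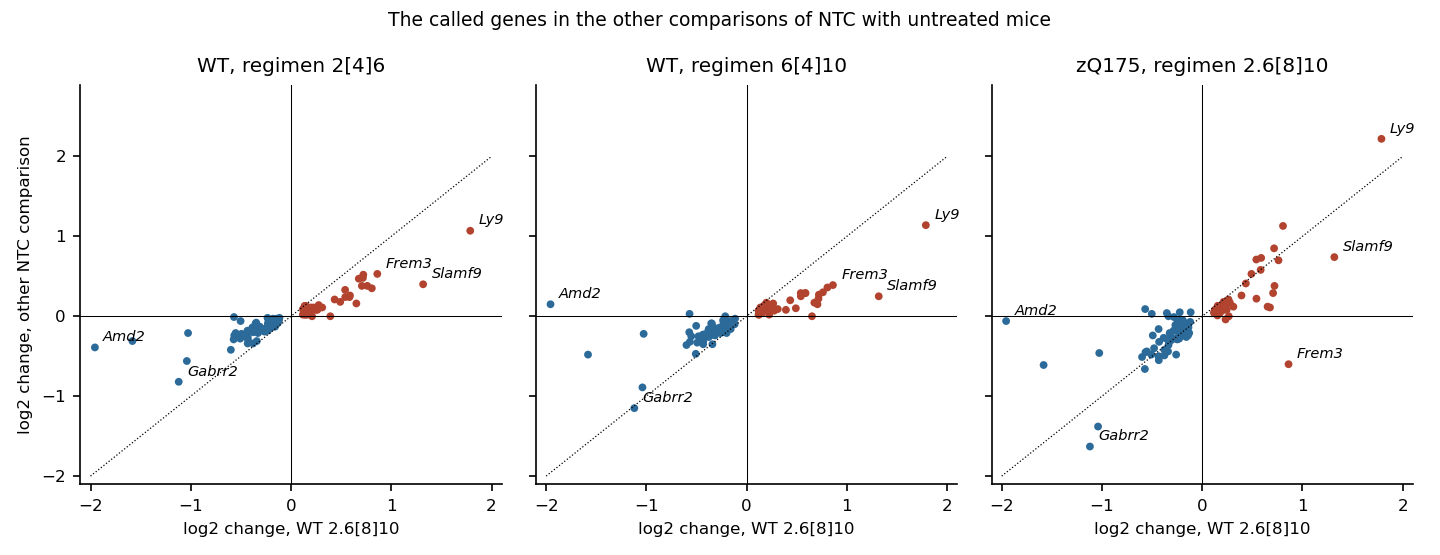
Log2 change of the 110 called genes in WT 2.6[8]10 mice (horizontal axis) against that in the other comparisons of NTC with untreated mice (vertical axis), which share no library with it. The dotted line marks equal change. In WT 2[4]6 all 110 have the same sign, in WT 6[4]10 3 have the opposite one, and in zQ175 103 have the same, where Frem3 lies on the opposite side.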

How the data were processed

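The deposited table holds expected counts per gene. Per the submitters' processing notes, the authors used RSEM and the GRCm38 build; which aligner, which versions and which gene annotation is not given in the sources used here. Of the values, 100 percent were whole numbers, so nothing was rounded. Names, positions and 3′ UTRs came from GENCODE vM21 (40254 of 41128 identifiers found). A further 7 features, with 6.85e-06 percent of counts, were left out.

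Genes were filtered with filterByExpr by group over the 64 libraries of the regimen, scaled with TMM factors and tested with edgeR 4.0.16 (quasi-likelihood; 8 groups, sex as covariate; contrasts within that fit, and in all 192 libraries for differences between regimens). CPM values use TMM factors. Low genes can pass the filter through any group; 10 called genes had a mean log2 CPM under 1. Alternatives used limma 3.58.1 and DESeq2 1.42.0.

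The comparison, the lists and the tests were chosen with earlier results of these data known. Named genes are, among called genes that average log2 CPM 1 or more and share their sign between females and males, the 10 raised and 10 lowered of largest change and the 5 and 5 of smallest p; Htt; up to 4 members per list; and up to 5 called genes per difference between groups. Some genes under this rule are not reported here. List members are given by counts beside those of all genes, and 28 of 41 lists held no call. Each library is 1 mouse, so p-values measure the spread between mice. No batch is given in the labels. No molecular identifiers mark PCR copies. Replicate pairs differed beyond counting noise (lowest chi-square per gene 3.75 over 56 pairs).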

Additional observations from a re-analysis of the deposited data

Results flagged for a closer look

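In 4 of 60 sets of 8 values checked (30 named genes in NTC and in untreated mice), 1 mouse stood far from the rest of its group by Dixon's test, which chance does in about 5 percent of sets. Ado was 54 CPM in NTC male_4, with the next NTC mouse at 44 CPM. Slc2a5 was 7.07 CPM in untreated female_3, with the next at 5.86 CPM. Trak2 was 240.7 CPM in untreated female_1, with the next at 217.8 CPM. Hsbp1 was 136.1 CPM in untreated female_3, with the next at 159.8 CPM. All 4 genes were called without the mouse concerned.

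The NTC change differed between genotypes in 3 genes by edgeR's test of the difference. For Frem3 the WT change minus the zQ175 change was 1.46 ± 0.27 on the log2 scale (adjusted p = 0.0188), for Nfat5 it was -0.26 ± 0.05 (adjusted p = 0.0417) and for Nf1 -0.28 ± 0.06 (adjusted p = 0.0417). None was called by limma-voom.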

How the results depend on the processing

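The 110 calls are 0.694 percent of genes tested. The share was 1.12 percent with DESeq2 (90 raised, 88 lowered), 0.257 with no filter on low counts (68 genes), 1.21 with the 16 libraries alone (182), and 0.0126 in females only and in males only (2 genes each). With the replicate block it was 0.461 percent (69, of which 40 shared), with the library-name number as a block 0.309 (49, of which 36 shared), and 0 in the 5 pairs sharing that number (edgeR; 1562 genes at an unadjusted p under 0.05). Libraries of the same replicate label hardly correlated (mean r 0.036, lowest -0.207, highest 0.450), and those of the same library-name number somewhat more (5 pairs, mean r 0.184, lowest -0.008, highest 0.483, against -0.039 for other numbers); not every pair was positive, so the samples were treated as sharing only a number. Leaving out 1 mouse gave 0.289 to 0.862 percent (46 to 137 genes). Among alternatives chosen after seeing the data it was 0.15 percent (24) without the 4 choroid plexus libraries, 0.0748 (12) without those and NTC female_2, and 0.959 (152) with a plexus covariate. The 3 calls of the genotype difference became 0 with limma-voom. The causes were not tested. Htt differed by between -25.5 and -19.9 CPM with 1 mouse left out. Each of the 30 genes named by rule kept its direction in every alternative in which it was fitted. These alternatives reuse the same mice, so a kept direction was favoured in advance.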
